A study of Mus musculus with 6 samples.

Results

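Nampt and Cd38 were followed as 2 of the 754 genes measured in sorted peritoneal macrophages of mice with ovarian tumors. They were picked by name because their products stand on opposite sides of nicotinamide adenine dinucleotide (NAD), and they were picked with the fall of both genes in these samples known. Their levels and changes are therefore given as a description, without a test. Nampt encodes nicotinamide phosphoribosyltransferase, the rate-limiting enzyme of the salvage route that makes NAD again from nicotinamide. Cd38 encodes a surface enzyme that splits NAD to nicotinamide and ADP-ribose and also makes cyclic ADP-ribose, a messenger that releases calcium from stores. Both genes are known to be induced in macrophages by inflammatory stimuli.

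The macrophages came from adult C57BL/6J mice injected with ID8 cells, a mouse ovarian cancer line, 7 weeks before treatment. The PBS group (3 samples) received 2 intraperitoneal injections of PBS, on days 1 and 5. The IRF5-NP group (3 samples) received nanoparticles on the same days, with 30 µg of mRNA for mouse IRF5, a transcription factor of inflammatory macrophages, in each dose. The methods of the study describe a mixture with mRNA for IKKβ, the kinase that activates IRF5, a higher dose and a shorter time of tumor growth, and the labels name the IRF5 mRNA alone. The methods also describe ID8 cells that express VEGF and albino mice of the strain C57BL/6J-Tyr<c-2J>. The particles have a core of polymer and mRNA and a coat with mannose groups that bind the mannose receptor. The control was PBS, and particles with an unrelated mRNA were not part of the comparison. Cells were washed from the peritoneal cavity and sorted as F4/80+ CD11b+. The labels do not say whether each sample is 1 mouse, so p-values measure only the spread between these samples, which may be technical.

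Expression was measured with the NanoString nCounter assay, which counts 1 barcoded probe for each transcript. The deposited values are counts scaled by 1 factor per sample, called normalized counts here. The genes summed to 1830318, 1603281 and 1302733 counts before scaling in PBS replicates 1, 2 and 3. The sums were 1293665, 1598272 and 683472 in IRF5-NP replicates 1, 2 and 3. A probe counted as detected above the background, which was 2 SD over the mean of the negative controls. It was 37.8, 29.8 and 28.1 normalized counts in the PBS samples and 37.2, 25.6 and 79.4 in the IRF5-NP samples. The difference between PBS replicates 2 and 3 was not distinguishable from sampling noise (chi-square over degrees of freedom 1.07, p = 0.0782), whereas PBS replicate 1 differed from them at 179 and 158. Their mean log2 value served as 1 sample, so that 2 PBS samples stood against 3 IRF5-NP samples, 5 in all. PBS replicate 1 stood apart from the other PBS samples, and its positive controls summed to 40675 counts, the lowest of the 6 samples, against 67499 to 113708 in the others. The part of this in its levels was not tested. IRF5-NP replicate 1 also stood apart, at 97.7 and 54.0 against IRF5-NP replicates 2 and 3, which differed from each other at 7.07.

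The labelled cell type was checked against its markers. Of 9 macrophage markers 8 were on the panel, and all 8 lay above the background in every sample. Adgre1, the gene of F4/80, had between 6523 and 25506 normalized counts, and Itgam, the gene of CD11b, had between 15177 and 36473. Both were used for the sort.

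The start sites of the genes differ in base composition. The 250 bases before each start site, in the 5′ to 3′ direction of the gene, are shown because both genes fell in the same samples. They come from RefSeq (GRCm38.p6, plus strand, chr12:32820085-32820334 for Nampt and chr5:43868559-43868808 for Cd38), and capitals mark matches to the motifs searched.
Nampt: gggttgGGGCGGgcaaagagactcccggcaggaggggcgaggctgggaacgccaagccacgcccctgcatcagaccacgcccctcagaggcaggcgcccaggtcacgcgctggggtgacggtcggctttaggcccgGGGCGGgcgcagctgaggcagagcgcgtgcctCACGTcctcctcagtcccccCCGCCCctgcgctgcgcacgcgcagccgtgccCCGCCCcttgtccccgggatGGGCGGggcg
Cd38: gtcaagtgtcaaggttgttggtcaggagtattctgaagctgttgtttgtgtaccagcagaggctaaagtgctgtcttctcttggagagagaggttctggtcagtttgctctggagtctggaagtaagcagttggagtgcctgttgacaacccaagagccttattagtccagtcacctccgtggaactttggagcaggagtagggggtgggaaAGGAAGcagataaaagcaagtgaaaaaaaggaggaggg

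The Nampt promoter was 75.6% G and C with 27 CpG dinucleotides, and the Cd38 promoter was 48.8% G and C with 1 CpG. Over 701 promoters of 572 panel genes the medians were 55.6% and 8 CpGs. Nampt lay above 95.1% of these promoters in G and C content, and Cd38 above 28.7%. In CpG number Nampt lay above 89.4% of them and Cd38 above 4.42%. On both strands, 7 motifs were searched, and their list was written after the sequences had been seen. The GC box GGGCGG matched 5 times in the Nampt promoter, between 244 and 10 bases before the start site, and 32.7% of 32807 mouse promoters of this length hold it. ACGTG, 1 form of the core of the hypoxia response element, matched once in Nampt, 82 bases before the start site on the opposite strand (16.6% of promoters). The form GCGTG, which the Nampt window also holds, was not searched. The ETS core AGGAAG matched once in Cd38, 38 bases before the start site (29.5% of promoters). Neither window held the NF-kB motif, searched as GGGA and CC with any 4 bases between (17.7% of promoters), the interferon-stimulated response element, searched as GAAA and GAAA with any 2 bases between (2.97%), the AP-1 motif TGANTCA (6.75%) or the E box CACGTG (6.02%), which overlaps the hypoxia core. These matches describe letters and not bound sites.

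Nampt had 4056, 4190 and 3973 normalized counts in PBS replicates 1, 2 and 3. After IRF5-NPs it had 1486, 1838 and 1614 in replicates 1, 2 and 3. The groups did not overlap, and the lowest PBS value was 2.16 times the highest IRF5-NP value. The PBS samples lay close together, and their 95% counting intervals of 3929 to 4185, 4062 to 4321 and 3836 to 4114 overlapped. In the IRF5-NP group the intervals were 1413 to 1562, 1751 to 1928 and 1489 to 1746, so that replicate 2 lay above the others. The PBS mean was 4068 ± 17.3 (SD, n = 2) and the IRF5-NP mean was 1646 ± 178 (SD, n = 3). The PBS SD leaves out the difference between PBS replicates 2 and 3, which were averaged first, and is not the spread of the 3 samples. The log2 change was -1.31 (standard error 0.21). On this scale 40.3% of the PBS level was left.

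Cd38 had 6149, 2933 and 2850 normalized counts in PBS replicates 1, 2 and 3. After IRF5-NPs it had 1218, 1155 and 1427 in replicates 1, 2 and 3. PBS replicate 1 was high and the other PBS samples were alike, and the IRF5-NP samples lay below every PBS sample. The lowest PBS value was 2.00 times the highest IRF5-NP value. The counting interval of PBS replicate 1 was 5994 to 6308, far from 2826 to 3043 and 2734 to 2970 in the others. In the IRF5-NP group the intervals were 1152 to 1286, 1086 to 1227 and 1310 to 1551, with replicate 3 above the others. The PBS mean was 4520 ± 2304 (SD, n = 2) and the IRF5-NP mean was 1266 ± 142 (SD, n = 3), and the log2 change was -1.74 (standard error 0.33). On the log2 scale 29.9% of the PBS level was left.

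**Figure D1:**
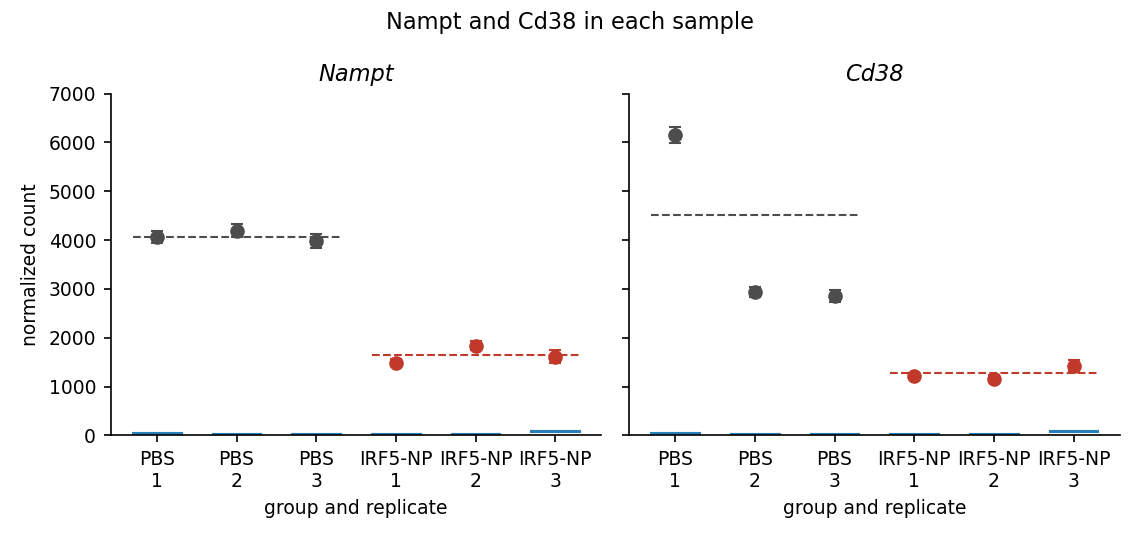
Normalized counts of Nampt (left) and Cd38 (right) in each of the 6 samples. Points carry 95% Poisson intervals of counting error, dashed lines are the group means with PBS replicates 2 and 3 counted once, and short blue lines mark the background of each sample. All IRF5-NP points lie below all PBS points, the PBS points of Nampt lie between 3973 and 4190, and PBS replicate 1 stands apart for Cd38 at 6149.

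Of all 754 genes, 20.4% had every IRF5-NP value below every PBS value, as these 2 genes did. They were picked with their fall known, so nothing is read from this share. Ordered by log2 change from the largest fall, Cd38 stood at position 36 and Nampt at position 55 of 754. Both genes were well above background, at between 20.3 and 141 times it for Nampt and between 18.0 and 163 times it for Cd38, with the smallest multiples in IRF5-NP replicate 3. In these bulk samples, fewer cells of a type that carries the transcript and less transcript per cell cannot be told apart.

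Without IRF5-NP replicate 1 the log2 change was -1.24 for Nampt and -1.71 for Cd38. The larger fall of Cd38 rested on PBS replicate 1. Without that sample the log2 change of Cd38 was -1.20 (standard error 0.23), and that of Nampt was -1.31 (standard error 0.24). The PBS arm is then the 1 averaged sample, whose spread is taken to equal that among the IRF5-NP samples. The PBS level of Cd38 was then 2.29 times the IRF5-NP level, in place of 3.34 times, while that of Nampt was 2.49 times in place of 2.48 times. Cd38 in PBS replicate 1 was 2.13 times its level in PBS replicates 2 and 3, a difference of 1.09 on the log2 scale. For Nampt the same ratio was 0.994. Among the 482 genes above background in every sample, the median of this difference was 0.09 on the log2 scale, with quartiles of -0.26 and 0.40. Of these genes 17 (3.53%) were higher in PBS replicate 1 by more than Cd38, and 6 (1.24%) differed by less than Nampt.

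**Figure D2:**
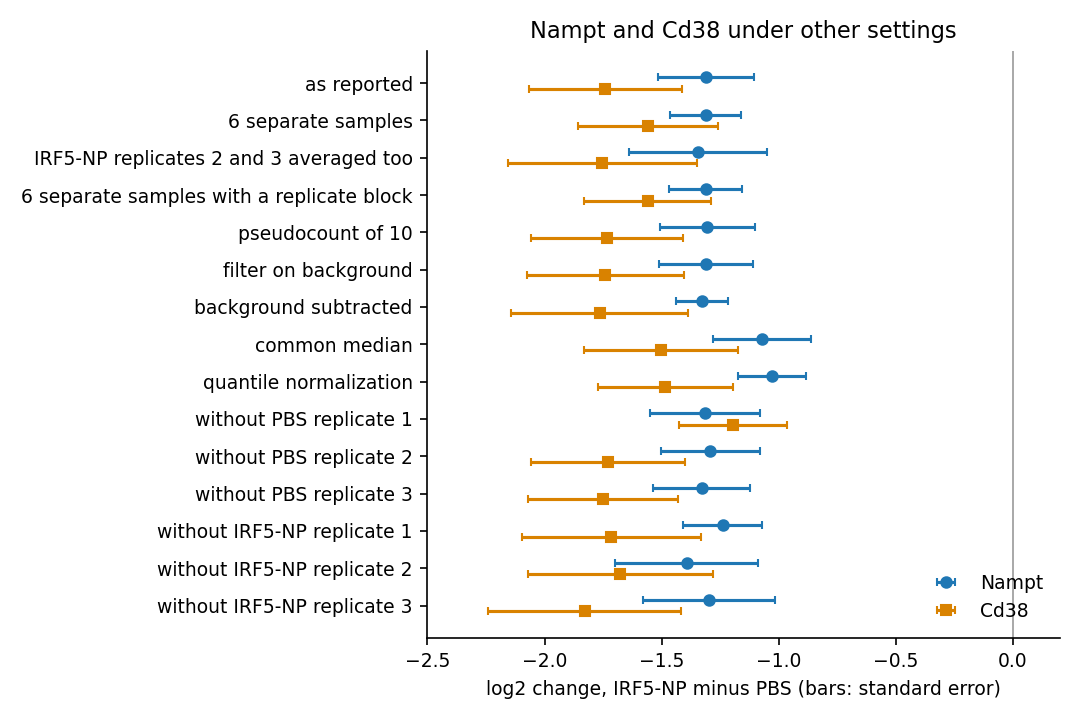
Log2 change (IRF5-NP minus PBS) of Nampt (circles) and Cd38 (squares) as reported and with other samples, scaling or filters, with bars for the standard error. Every value lies below 0, and the order of the genes turns without PBS replicate 1, at -1.31 for Nampt and -1.20 for Cd38.

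The ratio of Nampt to Cd38 within a sample does not depend on how samples were scaled to each other, although its absolute value compares different probes and has no meaning as a ratio of transcripts. On the log2 scale it was -0.60, 0.51 and 0.48 in PBS replicates 1, 2 and 3. In IRF5-NP replicates 1, 2 and 3 it was 0.29, 0.67 and 0.18. The groups overlapped, and PBS replicate 1 was the lowest of the 6 samples. The PBS mean was -0.05 ± 0.78 (SD, n = 2) and the IRF5-NP mean was 0.38 ± 0.26 (SD, n = 3), a difference of 0.43 that lay within the spread of the PBS samples. Against PBS replicates 2 and 3 alone, at 0.50, the IRF5-NP mean differed by -0.12.

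The genes also did not move together within the groups. Among the IRF5-NP samples Nampt was highest in replicate 2 and lowest in replicate 1, whereas Cd38 was highest in replicate 3 and lowest in replicate 2. With 5 samples that fall into 2 separate groups, a correlation over samples was not computed.

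**Figure D3:**
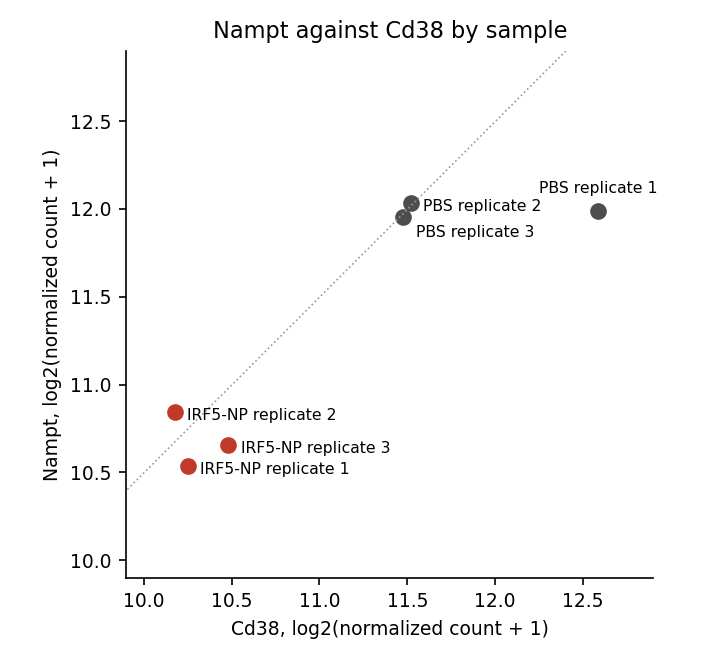
Nampt against Cd38 in each sample, both as log2 of the normalized count plus 1 (PBS gray, IRF5-NP red). The dotted line marks the Nampt to Cd38 ratio of PBS replicates 2 and 3 (0.50 on the log2 scale). The IRF5-NP samples lie lower on both axes and on either side of this line, at 0.29, 0.67 and 0.18, and PBS replicate 1 lies far to the right of it, at -0.60.

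The most alike genes were sought for each of them, as the 5 smallest root-mean-square differences between log2 profiles centred on their own mean, over 5 samples. The candidates were 546 genes above background in every PBS sample, whether or not they were above it with IRF5-NPs. For genes under background with IRF5-NPs, the differences and positions rest in part on background values. The fall and the differences between the PBS samples are part of this measure, so the lists describe the shape and carry no test. For Nampt they were Cdh1 (0.09), Tlr9 (0.11), Plau (0.15), H2-DMa (0.16) and Cxcl16 (0.17). Tlr9, an endosomal receptor for unmethylated DNA, had 231, 209 and 197 normalized counts with PBS and 66.6, 89.3 and 80.6 with IRF5-NPs. H2-DMa, which helps to load peptides on MHC class II, had 2423, 2821 and 2970 with PBS and 826, 941 and 1006 with IRF5-NPs. Plau, the urokinase plasminogen activator, had 824, 839 and 764 with PBS and 358, 323 and 351 with IRF5-NPs. Cxcl16, a transmembrane chemokine, had 3724, 3391 and 3364 with PBS and 1364, 1929 and 1884 with IRF5-NPs. By this choice these genes were, like Nampt, closer to level across the PBS samples than Cd38. H2-DMa differed most, with PBS replicate 1 at -0.26 from PBS replicates 2 and 3 on the log2 scale. Cdh1, which encodes E-cadherin, was near background, at 80.9, 86.9 and 97.6 with PBS and 35.2, 40.8 and 36.4 with IRF5-NPs, where replicates 1 and 3 were under it.

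For Cd38 the most alike genes were Socs2 (0.10), Mmp8 (0.15), Nfkbia (0.16), Il10 (0.18) and Cxcr4 (0.18). Nfkbia, the inhibitor of NF-kB that NF-kB itself induces, had 3109, 1499 and 1448 normalized counts with PBS and 817, 709 and 780 with IRF5-NPs. Cxcr4, the receptor of CXCL12, had 1150, 734 and 736 with PBS and 273, 209 and 286 with IRF5-NPs. Socs2, a suppressor of cytokine signalling, had 234, 134 and 129 with PBS and 51.4, 49.6 and 54.6 with IRF5-NPs. All 3 were high in PBS replicate 1, as Cd38 was, which follows from the choice by profile. Il10, an anti-inflammatory cytokine, was under background in all 3 IRF5-NP samples, Mmp8, a collagenase of neutrophil granules, in replicates 1 and 3, and Socs2 in replicate 3. The 2 lists of 5 shared no gene. Cd38 stood at position 84 among the genes most like Nampt, and Nampt at position 36 among those most like Cd38, with the same difference of 0.44.

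**Figure D4:**
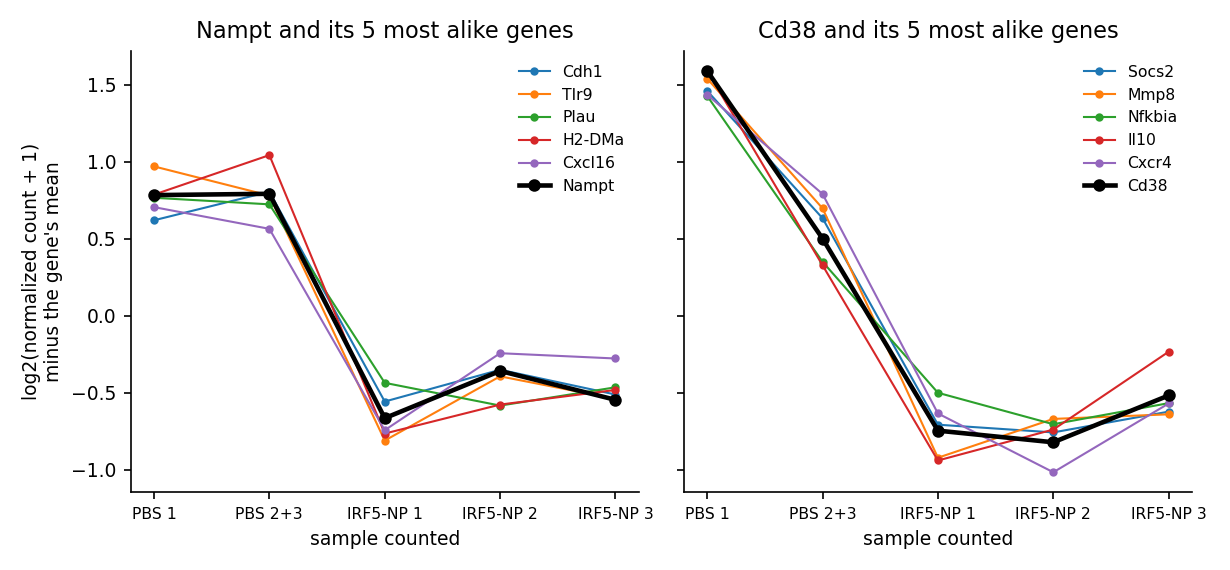
Centred log2 profiles of Nampt (left, black) and Cd38 (right, black) with their 5 most alike genes over the 5 samples counted, where PBS 2+3 is the mean of PBS replicates 2 and 3. Lines join the values of 1 gene and imply no order of the samples. As the genes were chosen by profile, the Nampt group is close to level between the PBS samples. The Cd38 group is higher in PBS replicate 1, by 1.09 on the log2 scale for Cd38 itself.

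Few other genes of NAD and purine metabolism were measured. Lists of NAD synthesis, NAD consumption, extracellular purine handling and NAD-dependent calcium signalling held 78 genes beside Nampt and Cd38, and 74 of them were not among the genes analysed here. By limma with Benjamini-Hochberg adjustment over the panel, 7.03% of the 754 genes were lower and 2.52% higher after IRF5-NPs, 9.55% in all. The balance moved with scaling, from 53 lower and 19 higher to 36 and 42 with a common median and 40 and 35 with quantile normalization. None of the 4 measured genes passed in either direction (0 at an unadjusted p under 0.05). Ido1, which opens the route from tryptophan toward NAD, was above background in 1 sample, with 17.6, 15.5 and 30.0 normalized counts with PBS and 12.4, 8.82 and 23.4 with IRF5-NPs. Its relative Ido2 was below background in every sample, and a change in either gene was not detectable at this depth. Adora3, a receptor for adenosine, had 49.8, 87.9 and 88.9 with PBS and 48.6, 101 and 104 with IRF5-NPs, with a log2 change of 0.27 (standard error 0.42, limma adjusted p = 0.771). Adora2a, the adenosine receptor that dampens inflammatory macrophages, had 29.0, 39.3 and 33.8 with PBS and 24.8, 44.1 and 46.8 with IRF5-NPs, with a log2 change of 0.19 (standard error 0.38, limma adjusted p = 0.816), and was above background in 3 of the 6 samples. For both receptors the groups overlapped.

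Nampt and Cd38 are known targets of inflammatory activation, and 24 inflammatory genes, all on the panel, were set beside them. Of these 8 (33.3%) were lower after IRF5-NPs by limma with Benjamini-Hochberg adjustment, 0 were higher and 16 did not pass, against the 7.03% and 2.52% of the panel. Their median log2 change was -0.68, against -0.03 over the panel, and 11 of the 24 had every IRF5-NP value below every PBS value, against 20.4% of the panel. The list was chosen with earlier results of these samples known and is not independent evidence of its direction. Cxcl9, a chemokine induced by interferon gamma, fell by 2.97 on the log2 scale (standard error 0.37, limma adjusted p = 0.00293). The chemokine Ccl4 fell by 2.86 (standard error 0.34, limma adjusted p = 0.0022). Ccl3, a related inflammatory chemokine, fell by 2.63 (standard error 0.39, limma adjusted p = 0.00591). Tnfaip3, a feedback inhibitor of NF-kB, fell by 2.38 on the log2 scale, Cxcl2, which attracts neutrophils, by 2.18, and Tnf by 2.03, with limma adjusted p = 0.0168, 0.0363 and 0.00932. Nfkbia and Socs3, feedback inhibitors of NF-kB and cytokine signalling, fell by 1.48 and 1.03, with limma adjusted p = 0.0293 and 0.038. Nos2, the inducible nitric oxide synthase, and Cxcl10 had log2 changes of -1.48 and -1.59 and did not pass (limma adjusted p = 0.0696 and 0.0934). With 6 separate samples both did (limma adjusted p = 0.0246 and 0.0393), Nos2 also with a replicate block (limma adjusted p = 0.00724) and Cxcl10 also with sample weights (limma adjusted p = 0.0313). The fits with 6 separate samples and with a block count PBS replicates 2 and 3 as 2 samples, although they could not be distinguished. The block also pairs samples by replicate number, which the labels do not state as a pairing. Changes above 0 that did not pass were 1.36 for Il6, 0.47 for the costimulatory gene Cd80 and 0.40 for Irf1 on the log2 scale (limma adjusted p = 0.265, 0.368 and 0.531). Il12a, under background in every sample, at 0.14 and Il1b at 0.04 were above 0 as well and did not pass (limma adjusted p = 0.892 and 0.944). For Il6 the change was 0.30 and for Irf1 -0.14 without PBS replicate 1, and Il6 passed with a replicate block at 1.01 (limma adjusted p = 0.0245).

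The inflammatory genes did not share 1 pattern between the PBS samples. Cxcl2 in PBS replicate 1 was 4.02 times its level in PBS replicates 2 and 3, Tnfaip3 3.31 times, Ccl3 2.51 times and Nfkbia 2.11 times, beside 2.13 times for Cd38. Cxcl9 was 0.427 times, Cxcl10 0.279 times and Irf1 0.472 times. Il6 had 32.2 normalized counts in PBS replicate 1, under its background, and 148 and 139 in PBS replicates 2 and 3. In all, 13 of the 24 genes were higher in PBS replicate 1. Without that sample, when the PBS arm is 1 averaged sample and the IRF5-NP samples alone give the spread, 6 of the genes were lower after IRF5-NPs, where Cxcl10 passed at -2.52 (limma adjusted p = 0.0172), while Nfkbia at -0.94, Socs3 at -0.82 and Tnf at -1.86 no longer did (limma adjusted p = 0.0738, 0.165 and 0.0741). The log2 changes of Cxcl2, Tnfaip3 and Ccl3 were then -1.18, -1.51 and -1.96. Without IRF5-NP replicate 3 the count was 2, and without IRF5-NP replicate 1 it was 5. Cxcl9 and Ccl4 passed whichever sample was left out, with the PBS arm at 1 sample in the fit without PBS replicate 1.

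**Figure D5:**
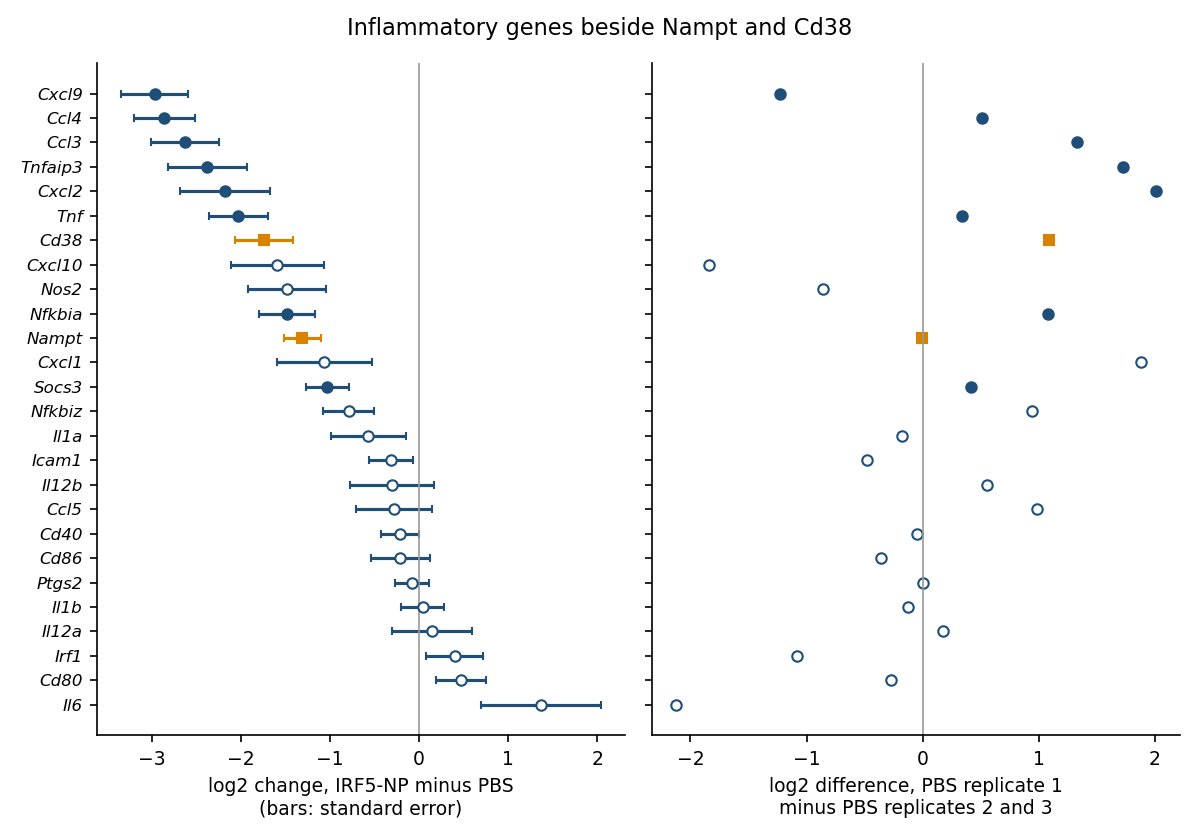
Left, log2 change (IRF5-NP minus PBS) of 24 inflammatory genes (circles, filled where limma's adjusted p is under 0.05) with Nampt and Cd38 (squares, no test), and bars for the standard error. Right, log2 difference of PBS replicate 1 from PBS replicates 2 and 3 for the same genes, where Cd38 is at 1.09 with Nfkbia at 1.08, and Nampt is at -0.01.

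In cultured mouse macrophages Cd38, Fpr2 and Gpr18 are known as markers of the inflammatory state, and Egr2 and Myc as markers of the alternative state. Gpr18 was not on the panel. Fpr2, a formyl peptide receptor, had 556, 913 and 926 normalized counts with PBS and 274, 421 and 470 with IRF5-NPs, a log2 change of -0.92 (standard error 0.32, limma adjusted p = 0.109). Unlike Cd38, it was lowest in PBS replicate 1 among the PBS samples. Egr2 had 51.9, 60.0 and 71.4 with PBS and 22.9, 26.5 and 46.8 with IRF5-NPs, a log2 change of -0.91 (standard error 0.39, limma adjusted p = 0.187), and was below background in IRF5-NP replicates 1 and 3. Myc had 583, 421 and 434 with PBS and 324, 292 and 307 with IRF5-NPs, a log2 change of -0.70 (standard error 0.22, limma adjusted p = 0.0843). All 3 had every IRF5-NP value below every PBS value, as 20.4% of the panel did, and 0 of the 3 passed. All 3 had an unadjusted limma p under 0.05, as did 191 of the 754 genes of the panel. For Egr2 the background of IRF5-NP replicate 3 lay above every PBS value, so that sample gives no order. With 6 separate samples Fpr2 and Myc did pass (limma adjusted p = 0.0413 and 0.0486), as they did with a replicate block (limma adjusted p = 0.00532 and 0.0419).

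Nampt is also known as a gene induced by low oxygen, and Cd38 as a target of the liver X receptor, which acts on lipid genes. Of 11 hypoxia genes 2 were measured. Vegfa, the angiogenic growth factor, fell by 0.82 on the log2 scale (standard error 0.20, limma adjusted p = 0.0429), and Hif1a had a log2 change of -0.27 (limma adjusted p = 0.515). The call of Vegfa was lost on leaving out PBS replicate 1 or any of the IRF5-NP replicates, with limma adjusted p = 0.144, 0.058, 0.152 and 0.171 without PBS replicate 1 and IRF5-NP replicates 1, 2 and 3 and changes between -0.87 and -0.73. The first of these p-values rests on a PBS arm of 1 averaged sample. The call was also lost with a common median at -0.58 and with quantile normalization at -0.48 (limma adjusted p = 0.107 and 0.0928). Of 9 liver X receptor genes the receptor Nr1h3 and Apoe were measured and neither passed (0 at an unadjusted p under 0.05). Irf5, the gene delivered, had 2573, 1991 and 1929 normalized counts with PBS and 1960, 2358 and 2294 with IRF5-NPs, and the groups overlapped. The delivered mRNA was codon-optimized, and whether the probe binds it was not tested. Ikbkb was not on the panel.

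Markers of macrophage subsets and of other cells also differed between the samples in which Nampt or Cd38 were high or low. In the resident peritoneal macrophage list, 3 of 5 measured genes were higher after IRF5-NPs by limma, and 0 lower, against 2.52% and 7.03% of the panel. The 5 summed to 8104, 18005 and 17695 normalized counts with PBS and 27364, 49614 and 49891 with IRF5-NPs, with Alox15 the most abundant. Alox15 had 2944, 10636 and 10441 with PBS and 12977, 19604 and 19457 with IRF5-NPs. It was not among the 3 that passed (limma adjusted p = 0.0881). The sum of the 5, like Alox15 alone, was lowest in PBS replicate 1, where Cd38 was highest. The 10 measured of 16 neutrophil genes summed to 7276, 2364 and 2320 with PBS and 2655, 1661 and 1970 with IRF5-NPs, with S100a8 the most abundant, at 3405 in PBS replicate 1. Of these 10, Csf3r was higher and Mmp8 lower, against 2.52% and 7.03% of the panel, and the defining gene Ly6g was above background in 1 sample, at 30.9 in IRF5-NP replicate 2. The part of these cells in the levels of Nampt and Cd38 was not tested.

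The calls that follow stand beside the same panel shares of 2.52% higher and 7.03% lower, and single calls in lists this short are not read as a change of the list. Monocyte genes, of which 5 of 8 were measured, summed to 36244, 61278 and 59554 with PBS and 56691, 76441 and 69746 with IRF5-NPs, led by Fn1, with 1 lower. The median log2 change of these 5 genes was -0.13, so the rise of the sum does not describe the typical gene. Macrophage markers summed to 80487, 74954 and 73548 with PBS and 55386, 112546 and 106223 with IRF5-NPs, lowest in IRF5-NP replicate 1, led by Itgam, with Mertk lower. The median log2 change of the macrophage markers was -0.19. Of 14 eosinophil and mast cell genes 11 were measured, led by Hdc, and 2 were higher, with sums of 323, 414 and 436 with PBS and 646, 1041 and 1050 with IRF5-NPs. Of the 11, 6 were under background in every sample. Of 18 genes of B and plasma cells, which carry Cd38 as well, 2 were measured. Ms4a1, the gene of CD20, had 25.9, 18.6 and 16.3 with PBS and 50.5, 60.6 and 75.4 with IRF5-NPs. It was higher by limma, although above background in 2 samples only and in no PBS sample. The part of B and plasma cells in the level of Cd38 was not tested. Of 10 dendritic cell genes 7 were measured, led by Itgax, with 1 lower and sums of 412, 459 and 453 with PBS and 252, 192 and 252 with IRF5-NPs. None of 3 natural killer cell genes and 1 T cell gene passed (0 at an unadjusted p under 0.05). Their sums were between 84.9 and 129 for natural killer cells and between 20.7 and 39.0 for T cells. Of 9 tumor and mesothelial genes Cdh1 alone was measured, with the values given above. It was lower by limma, although above background in 4 of the 6 samples only. The part of such cells in the level of Nampt was not tested.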

How the data were processed

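Sorted F4/80+ CD11b+ peritoneal macrophages were measured with the NanoString nCounter assay in 3 PBS and 3 IRF5-NP samples, grouped by their titles. The deposited values are a signal, the normalized count on a linear scale. The authors used NanoStringQCPro for quality and nSolver for scaling by the geometric mean of housekeeping genes, a description given for cultured macrophages that also names a log2 step, which these values lack. All values of a sample were whole multiples of 1 factor (754 of 754 genes, within 0.01), at 1.04, 1.03 and 1.25 for PBS and 0.952, 1.10 and 2.60 for IRF5-NP replicates 1, 2 and 3. Counts before scaling gave depth, background and exact Poisson intervals, which cover counting error only. Control probes are raw counts and were not tested.

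The table of 768 probes holds 754 genes, 8 negative and 6 positive controls. Genes were compared with limma 3.58.1 in R 4.3.3 (lmFit, eBayes with trend) on log2(value + 1), and two-sided p-values were adjusted by Benjamini-Hochberg over 754 genes at 0.05, without a filter. PBS replicates 2 and 3 could not be distinguished by a chi-square test of their counts and entered as 1 sample. Fold changes are on the log2(value + 1) scale. Nampt and Cd38 have no p-value, since they were chosen with their change in this contrast known. Members, lists and tests were chosen with earlier results of these data known. Named were Nampt and Cd38, measured members of the gene lists, the 5 most alike genes of each, and the genes delivered. Of 754 symbols, 744 matched RefSeq by symbol, 9 by a synonym and 1 not. The values name no genome build, and promoters are RefSeq's (GRCm38.p6). Python 3.11.15, numpy 2.4.6, scipy 1.17.1, pandas 2.3.3 and matplotlib 3.10.9 were used. The fit was tested on simulated data, and no outcome of that test is reported here.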

Additional observations from a re-analysis of the deposited data

How the results depend on the processing

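Nampt and Cd38 were lower after IRF5-NPs in each of 14 alternative fits, with log2 changes between -1.39 and -1.03 for Nampt and between -1.83 and -1.20 for Cd38. Nampt was at -1.07 with a common median and -1.03 with quantile normalization, where the median of all genes differed by -0.24 on the log2 scale (IRF5-NP minus PBS) before these steps, and Cd38 was at -1.20 without PBS replicate 1. Leaving out 1 sample at a time gave -1.39 to -1.24 for Nampt and -1.83 to -1.20 for Cd38. The change of the log2 ratio turned from 0.43 to -0.12 without PBS replicate 1 and lay between -0.12 and 0.53 on leaving out 1 sample. Over the panel, limma gave 19 genes higher and 53 lower, and 191 genes had an unadjusted p under 0.05. It gave 37 and 84 with 6 separate samples, 3 and 28 with IRF5-NP replicates 2 and 3 averaged too, 4 and 21 with the background subtracted, 42 and 36 with a common median, 35 and 40 with quantile normalization, 8 and 33 without the variance trend, 42 and 83 with sample weights, and 2 and 19 by Benjamini-Yekutieli adjustment. A pooled t-test on the same 5 samples, with Benjamini-Hochberg adjustment, gave 0 and 0. The methods of the study name t-tests with Benjamini-Yekutieli adjustment, which were not run. Leaving out 1 sample gave 2 to 24 higher and 19 to 59 lower, with 3 and 32 without PBS replicate 1 (where 1 averaged PBS sample is left and its spread is taken to equal that among the IRF5-NP samples), 6 and 35 without IRF5-NP replicate 2, and 2 and 19 without IRF5-NP replicate 3. Of the 8 inflammatory genes lower, the count was 4 with IRF5-NP replicates 2 and 3 averaged too, 1 with background subtracted, 5 with quantile normalization and 5 without the trend. It was 3 by Benjamini-Yekutieli adjustment, 0 by the pooled t-test, and 2 to 8 on leaving out 1 sample. These inflammatory counts were added after the data had been seen. The 4 other NAD and purine genes gave 0 calls under every alternative run. Alternatives were followed for 22 of the genes named. Il12a, Il1b and the called genes Mertk, Csf3r, Mmp8, Ms4a1 and Cdh1 were not among the 22. Of the values, 323 kept direction and side of the threshold, 57 lost the call, 11 gained it, and 4 turned sign. None of the 4 was in a gene of the 22 that was called. They were Adora2a at -0.96 with background subtracted, Adora3 and Irf1 at -0.14 without PBS replicate 1 (up to 0.62 and 0.50 on leaving out another sample) and Ido2 at -0.0400 without PBS replicate 3 (up to 0.60). The cause of these changes was not tested. Samples with the same replicate number correlated in their deviations from the group means over 482 genes by 0.158, 0.178 and 0.0953. PBS replicate 3 correlated more with IRF5-NP replicate 2 (0.144), but it could not be distinguished from PBS replicate 2. These values do not decide whether the samples were paired, and the labels share only the number. With a replicate block and 6 separate samples 52 genes were higher and 83 lower, with 1 inflammatory gene higher and 9 lower. Nampt was then at -1.31 and Cd38 at -1.56. The fits with 6 separate samples, with or without the block, count PBS replicates 2 and 3 as 2 samples. The 2 planned tests for counts were not run, because the gene values of the IRF5-NP samples start above 1 count and their unit could not be checked as whole reads. Depth, counting intervals and the chi-square values rest on the factors found from the values. A change in the 124 genes below background in every sample was not detectable.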
